A study of Arabidopsis thaliana with 12 samples.

Results

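AT5G03350 and AT5G18470 are genes of Arabidopsis thaliana for proteins of the legume lectin family and the curculin-like (mannose-binding) lectin family. They are 2 of the 13286 genes that had a probe set of their own in the gene annotation used here. Each was read by 1 probe set, 250942_at for AT5G03350 and 249983_at for AT5G18470. As 8730 probe sets had no entry in that annotation, a gene counted below as without a probe set may still be on the arrays. They were chosen for opposite patterns in these same arrays. With both agents together, AT5G03350 lay below, and AT5G18470 above, the sum of the log2 changes seen with each agent alone. Those values are therefore given as a description, with standard errors and no test.

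Each of 4 groups held 3 biological replicates, and every replicate had an array to itself, 12 in all. CK seedlings were untreated. The other seedlings received INA (10 µM), BLM (4 µg/ml) or the combination, BLM+INA, with each dose kept. Wild-type genotype and growth on MS plates were common to all groups, and the labelled tissue is the seedling. From its title, the series asks whether a compound that damages DNA and one that induces immunity act together on defence genes. The age of the seedlings and the length of the treatment are not given in the sources used here.

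Lectins are proteins that bind sugars without changing them. Plant lectins occur as small soluble or secreted proteins and as the outer part of receptor kinases, where the lectin domain is joined through the membrane to a kinase. Legume-type lectins share the fold of the seed lectins of legumes, and curculin-type lectins share the mannose-binding fold known from monocot bulbs. Members of both families are known from plant defence. INA is a synthetic compound that acts in plants much like salicylic acid, the hormone of defence against biotrophic pathogens.

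The deposited values are log2 values less the median that the same probe set had across the 12 arrays. A value of 0 is thus the middle of the 12 arrays. Differences between groups can be read from the values, and the level of a gene cannot. How finely the numbers are stored gives a coarse class of median level for most probe sets. The root markers AT4G26010 and PYK10 and the green shoot markers PSAN and LHCB4.2 were of 8 or over. The other root markers with a probe set were of 4 to 8. AT5G18470 was of 4 to 8, and AT5G03350 could not be classed. Levels of the lectin genes against each other within a class could not be checked. Array medians lay between -0.0208 and 0.0255. Of the root markers, 5 of 6 with a probe set fell with BLM and 5 of 6 with BLM+INA against control by limma, where 8.29% and 11% of all probe sets were called downward. PYK10 was the one that did not, at -0.06 ± 0.10 with BLM and -0.02 ± 0.10 with both. The largest change was that of AT4G26010, at -2.82 ± 0.17 and -3.17 ± 0.17. The mean centred value of the 6 root markers lay between 0.500 and 0.729 on the control arrays, 0.444 and 0.530 with INA, -0.690 and -0.586 with BLM, and -0.670 and -0.588 with both. Of the green shoot markers, 2 of 9 had a probe set, of which 1 fell with BLM and 2 with both, beside the same shares. Their mean lay between 0.143 and 0.188, 0.0755 and 0.163, -0.145 and -0.102, and -0.260 and -0.214 in the same order of groups. In RNA of seedlings, fewer cells of a type and less RNA per cell cannot be told apart, and the part of tissue makeup in the lectin values below was not tested.

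AT5G03350 lay lowest in control, higher with BLM, higher again with INA, and highest with both agents. The 3 control arrays stood at -3.65, -3.69 and -3.51 in centred log2 values. The BLM arrays stood at -1.92, -1.62 and -1.23. The INA arrays stood at 1.37, 1.23 and 1.37, and the BLM+INA arrays at 2.23, 2.19 and 2.29. No group overlapped another: the smallest gap, between the highest INA array and the lowest BLM+INA array, was 0.82. Replicates lay close together in 3 groups, with SDs of 0.09 in control, 0.08 with INA and 0.05 with both agents (n = 3 each). With BLM they were spread more widely, with an SD of 0.35 (n = 3).

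**Figure D1:**
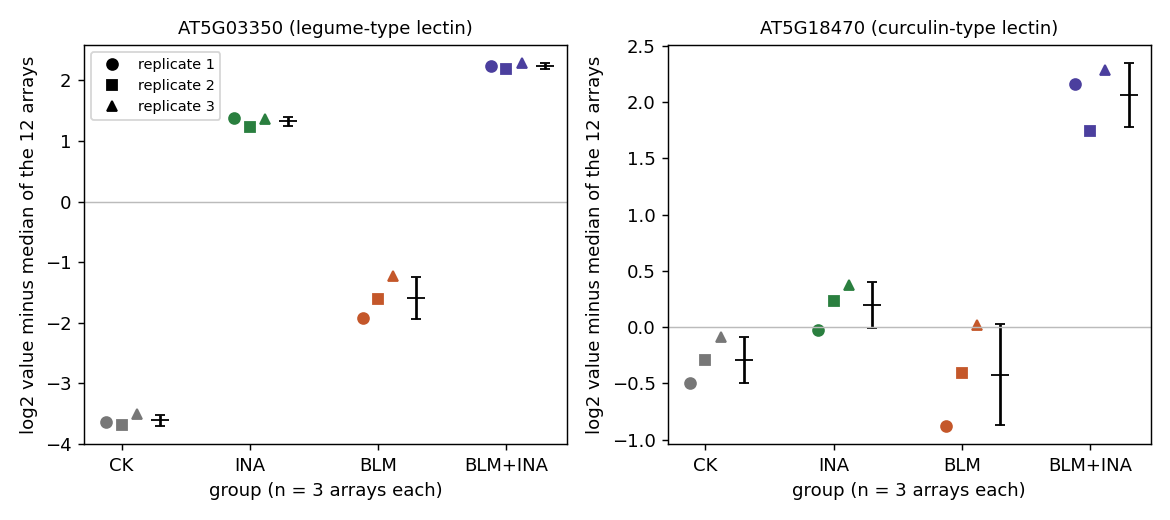
Centred log2 values of AT5G03350 (left) and AT5G18470 (right) on the 12 arrays, by group. Symbols mark the replicate number, and the black bars give the mean ± SD of 3 arrays. The 4 groups of AT5G03350 are all apart, while for AT5G18470 the control, INA and BLM arrays lie between -0.88 and 0.38 and the BLM+INA arrays between 1.74 and 2.29.

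Against control, the log2 value of AT5G03350 was higher by 4.94 ± 0.13 (SE) with INA, by 2.03 ± 0.13 with BLM and by 5.85 ± 0.13 with both agents (n = 3 arrays per group). As ratios of geometric means, these are 30.6-fold, 4.07-fold and 57.8-fold. Among all 22746 probe sets, its difference was the 3rd highest with INA, the 32nd highest with BLM and the 6th highest with both. The same gene thus stood near the top of each comparison with control, and the BLM+INA and the single-agent comparisons share the 3 control arrays.

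The step seen with 1 agent was smaller where the other was present. With INA the mean of AT5G03350 was higher by 4.94 in the absence of BLM and by 3.83 ± 0.13 in its presence, or 14.2-fold. With BLM it was higher by 2.03 in the absence of INA and by 0.92 ± 0.13 in its presence, or 1.89-fold. The shortfall against the sum of the single changes, 6.96, was -1.11 ± 0.19, the 12th lowest of the 22746 probe sets. After quantile normalization of the centred values, the BLM difference was 0.92 ± 0.13 without INA and -0.15 ± 0.13 with it. The sign of the BLM step on top of INA thus depended on this setting. It was 0.91 with array centring, 0.92 with the replicate block and 0.87 to 0.94 without 1 array at a time. After quantile normalization the interaction was -1.07 ± 0.18.

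A sum on the log2 scale is a product of folds, and the place of AT5G03350 depended on which of these was the yardstick. Taken relative to the control mean on the linear scale, the arrays with both agents stood at 57.5, 56.0 and 59.9. The product of the single folds was 124.7, so the observed value lay 2.16-fold below it. Adding the single rises instead gave 33.8, and all 3 arrays with both agents lay above that. On this scale the excess over the sum of the single rises was 24.0 ± 1.61 (SE, n = 3 per group). AT5G03350 was therefore below the multiplied folds and above the added rises.

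**Figure D2:**
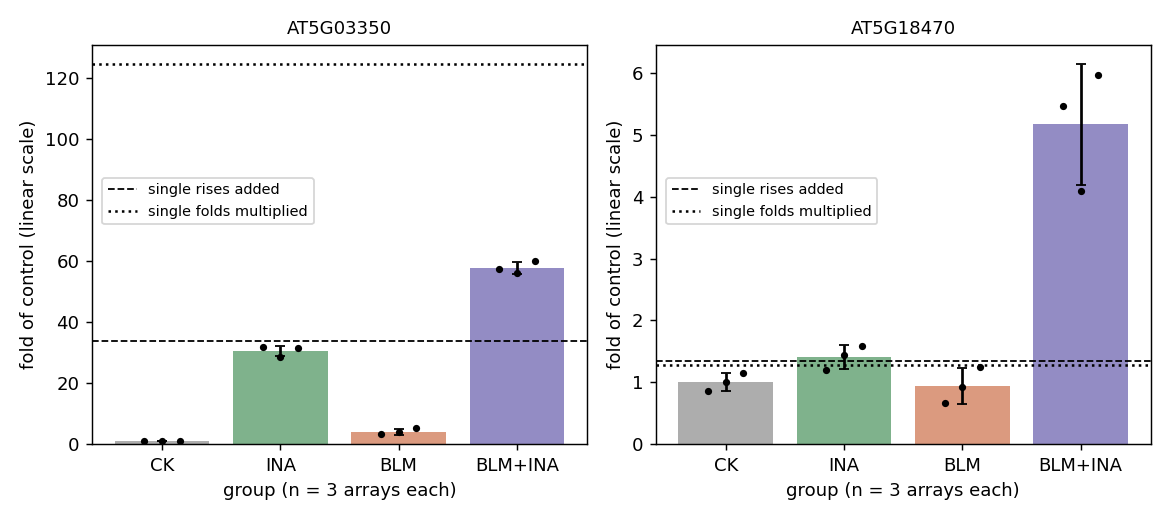
Signal relative to the control mean on a linear scale for AT5G03350 (left) and AT5G18470 (right), with bars at the mean of 3 arrays, error bars of 1 SD and points for arrays. The dashed line gives the control plus the rises with each agent added, and the dotted line gives the single folds multiplied. The BLM+INA arrays of AT5G03350 (56.0 to 59.9) lie between the lines at 33.8 and 124.7, and those of AT5G18470 (4.08 to 5.97) lie above both lines, at 1.35 and 1.28.

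AT5G18470 lay higher on the 3 arrays with both agents than on the other 9. The control arrays stood at -0.50, -0.29 and -0.09 in centred log2 values. The INA arrays stood at -0.02, 0.23 and 0.38, and the BLM arrays at -0.88, -0.41 and 0.02. The BLM+INA arrays stood at 2.16, 1.74 and 2.29. The lowest array with both agents was 1.36 above the highest INA array. The BLM arrays overlapped both the control and the INA arrays. Between the highest control and the lowest INA array the gap was 0.06, which is less than the SD of 0.20 within either group (n = 3 each). The SD was 0.45 with BLM and 0.29 with both agents.

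Against control, the log2 value of AT5G18470 differed by 0.49 ± 0.19 (SE) with INA and by -0.13 ± 0.19 with BLM (n = 3 arrays per group). With both agents it was higher by 2.35 ± 0.19, or 5.11-fold. Its difference ranked 276th from the highest of the 22746 probe sets with INA, 17612th with BLM and 96th with both. The sign of the BLM value was not settled: it was 0.10 without BLM replicate 1 and -0.35 without BLM replicate 3.

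The difference seen with each agent in AT5G18470 was larger in the presence of the other. For INA it was 0.49 without BLM and 2.48 ± 0.19 with it, which is 5.60-fold. For BLM it was -0.13 without INA and 1.87 ± 0.19 with it, which is 3.65-fold. The value with both agents exceeded the sum of the single changes, 0.35, by 2.0 ± 0.27, the 11th highest of the 22746 probe sets, or 3.99-fold. After quantile normalization of the centred values this excess was 1.18 ± 0.23. On the linear scale, where the arrays with both agents stood at 5.46, 4.08 and 5.97 times the control mean, the excess over the added rises was 3.83 ± 0.60. AT5G18470 thus lay above both the multiplied folds and the added rises.

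The spread within groups had a common order in AT5G18470. Replicate 1 was the lowest array in control, INA and BLM, and replicate 3 the highest in all 4 groups. For AT5G03350, replicate 2 was the lowest in 3 groups, and replicate 3 was the highest in control, BLM and BLM+INA. The 3′ minus 5′ signal of the dap control, an RNA spiked into the samples, had an order by replicate too. Its mean was -0.42 ± 0.25 (SD, n = 4 arrays) in replicates 1, -0.07 ± 0.25 in replicates 2 and 1.01 ± 0.11 in replicates 3. The 3′ minus 5′ signal of actin, from the seedling RNA, averaged -0.26 ± 0.15, -0.05 ± 0.14 and 0.36 ± 0.19 in the same order. That of GAPDH, also from the seedling RNA, averaged 0.03 ± 0.12, 0.10 ± 0.10 and 0.12 ± 0.10. GAPDH did not keep the order in every group, with 0.19, 0.08 and 0.11 for the BLM+INA arrays. All 3 signals are differences of centred values, so they compare arrays and their sign has no meaning of its own. Every group held 1 array of each replicate number, and the part of these signals in the lectin values was not tested.

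The genes whose values over the 12 arrays were most like those of AT5G03350 were AT2G41090, AT2G25510, AT1G13750, ECS1 (AT1G31580) and AT1G49750. Likeness was Pearson's r with 13434 probe sets of 1 gene, and the 5 had r from 0.976 to 0.994 and Spearman's rho from 0.902 to 0.965. The choice of these 5 depended on the measure: 37 probe sets had r over 0.9. When ranked by Spearman's rho 0 of the 5 were kept, and by group means 0. The 12 arrays fall into 4 groups, so r mostly describes the differences between groups. AT2G41090 stood 3.90 ± 0.17 above control with INA, 1.22 ± 0.17 with BLM and 4.51 ± 0.17 with both. AT2G25510 stood at 3.40 ± 0.16, 1.56 ± 0.16 and 3.59 ± 0.16. The other three stood lower, at 2.61-fold to 2.82-fold of control with INA, 1.29-fold to 1.38-fold with BLM and 2.71-fold to 4.10-fold with both. They shared the order of groups with AT5G03350 more than its shortfall against the sum, which was -1.37 ± 0.23 for AT2G25510, -0.62 ± 0.24 for AT2G41090 and -0.34 ± 0.16 for ECS1, against 0.07 ± 0.15 for AT1G13750 and 0.01 ± 0.16 for AT1G49750.

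AT5G18470 was most like AT5G52760, AT5G44820, AT2G26190, AT4G18250 and AT1G10340, with r from 0.963 to 0.972 and rho from 0.867 to 0.944. For this gene 83 probe sets had r over 0.9. When ranked by rho 1 of the 5 was kept, and by group means 0. With both agents the 5 stood 3.70 ± 0.16, 1.86 ± 0.18, 1.27 ± 0.13, 1.04 ± 0.14 and 2.63 ± 0.13 above control. With INA alone they stood between 0.37 and 0.84, and with BLM alone between -0.03 and 0.49. All 5 lay above the sum of the single changes, by 0.68 ± 0.20 (AT4G18250) to 2.46 ± 0.23 (AT5G52760). The members themselves had r = 0.769 with each other over the 12 arrays. Genes picked for likeness on these arrays are a description, and none of these values was tested.

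**Figure D3:**
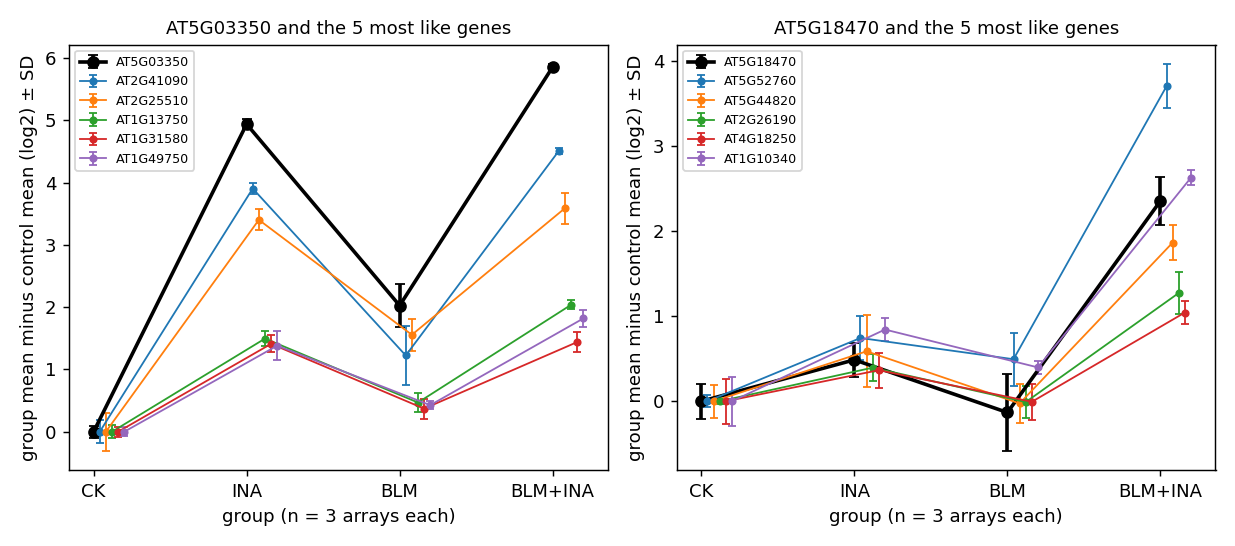
Group means relative to the control mean (log2, error bars 1 SD of 3 arrays) for AT5G03350 and its 5 most like genes (left) and for AT5G18470 and its 5 most like genes (right). On the left all 6 genes stand higher with INA than with BLM, and on the right all 6 stand highest with both agents.

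Other lectin genes were looked at to see whether their families moved with the 2 genes. The 4 lists held 97 genes, placed there from general knowledge of the families and with earlier results of these data known. Of these genes, 37 had a probe set of their own in the annotation. They were 6 of 9 legume lectins without a kinase, 4 of 9 curculin-type lectins without a kinase and 27 of 37 curculin-type (G-type) lectin receptor kinases. For the 42 legume-type lectin receptor kinases no probe set was named here. Calls are those of limma with Benjamini-Hochberg adjustment over the 22746 probe sets, at an adjusted p under 0.05.

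With INA, 3 of the 37 other lectin genes rose and 0 fell, against 1.16% of all probe sets called (0.91% upward and 0.251% downward). All 3 were receptor kinases of the G-type. AT1G11330 rose by 1.03 ± 0.14 (adjusted p = 0.000389), AT4G27300 by 0.86 ± 0.13 (adjusted p = 0.00135) and AT4G11900 by 0.59 ± 0.10 (adjusted p = 0.00282). The legume lectin gene AT3G16530 stood at 0.77 ± 0.20 (adjusted p = 0.088) and passed without control replicate 2 (1.0), without BLM+INA replicate 2 (0.77) or after quantile normalization (0.73, adjusted p = 0.0247). AT2G19130 stood at 0.47 ± 0.11 (adjusted p = 0.0557). Its call was gained, with adjusted p values from 0.0212 to 0.0486 and a change of 0.46 to 0.47, without BLM replicate 1 or BLM replicate 2, with quantile normalization, the replicate block or array weights, and without probe sets of low level. The median change of the 37 was 0.07, beside 0.01 for all probe sets.

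With BLM, 5 of the 37 rose and 2 fell, against 16.7% of all probe sets called (8.38% upward and 8.29% downward). The median change was 0.16, beside 0.04 for all probe sets. AT4G27300 rose by 0.81 ± 0.13 (adjusted p = 0.00028). Most of the other calls were near the threshold, and the count of 7 fell to 2 without control replicate 1, to 4 without control replicate 3 or INA replicate 2, to 3 without BLM replicate 1 and to 1 without BLM replicate 2.

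With both agents, 9 of the 37 rose and 2 fell, against 22.2% of all probe sets called (11.2% upward and 11% downward), and the median change was 0.10, beside 0.02 for all. The 9 were 7 G-type receptor kinases and 2 legume lectins. AT1G11330 rose by 2.11 ± 0.14 (adjusted p = 5.92e-09), which is 4.31-fold, AT3G16530 by 1.73 ± 0.20 (adjusted p = 3.91e-06) and AT4G27300 by 1.66 ± 0.13 (adjusted p = 5.44e-08). AT2G19130 rose by 1.13 ± 0.11, AT4G11900 by 1.05 ± 0.10 and the legume lectin gene AT1G53080 by 0.55 ± 0.13, all below the 5.85 of AT5G03350. The legume lectin genes AT1G53070 and AT3G54080 fell by 0.45 ± 0.12 and 0.43 ± 0.13. AT1G53070 lost its call without BLM+INA replicate 1 (-0.38), and AT3G54080 lost it without control replicate 1 (-0.41) or BLM+INA replicate 1 (-0.30).

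Of the curculin-type lectins without a kinase, the family form nearest to AT5G18470, 0 of 4 passed limma's threshold in any of the 3 comparisons with control. The shares over all probe sets were 1.16%, 16.7% and 22.2%, so that a count of 0 of 4 is near the background. Their changes with both agents lay between -0.07 and 0.23, and at an unadjusted p under 0.05 the counts were 0 with INA, 1 with BLM and 0 with both. The share over all probe sets at that unadjusted level was not counted. AT3G12000 stood at 0.23 ± 0.12 with both agents, AT5G39370 at 0.14 ± 0.12, AT3G51710 at -0.07 ± 0.10 and AT2G01780 at -0.04 ± 0.13. By the coarse classes of median level, AT3G12000, AT5G39370 and AT2G01780 were of 2 to 4. AT3G51710 was of 4 to 8, as was AT5G18470. The part of low signal in these small changes was not tested.

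The interaction passed limma's threshold for 0 of the 37 other lectin genes, against 0.382% of all probe sets (0.303% upward and 0.0791% downward). Their lists were made with earlier results of these data known. At an unadjusted p under 0.05 the count was 3, and the share over all probe sets at that level was not counted. A count of 0 of 37 is near the 0.382% called. On simulated data the interaction test found 4.67% of 1.5-fold and 81.3% of 2-fold changes. The count of 0 therefore does not show that smaller interactions were absent. The interaction values of the 37 lay between -0.35 and 0.64. The highest was that of AT1G11330, at 0.64 ± 0.20 (adjusted p = 0.318), and AT3G16530 stood at 0.58 ± 0.28 (adjusted p = 0.673). AT4G27300 stood at -0.01 ± 0.19, with both agents close to the sum of the single changes.

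**Figure D4:**
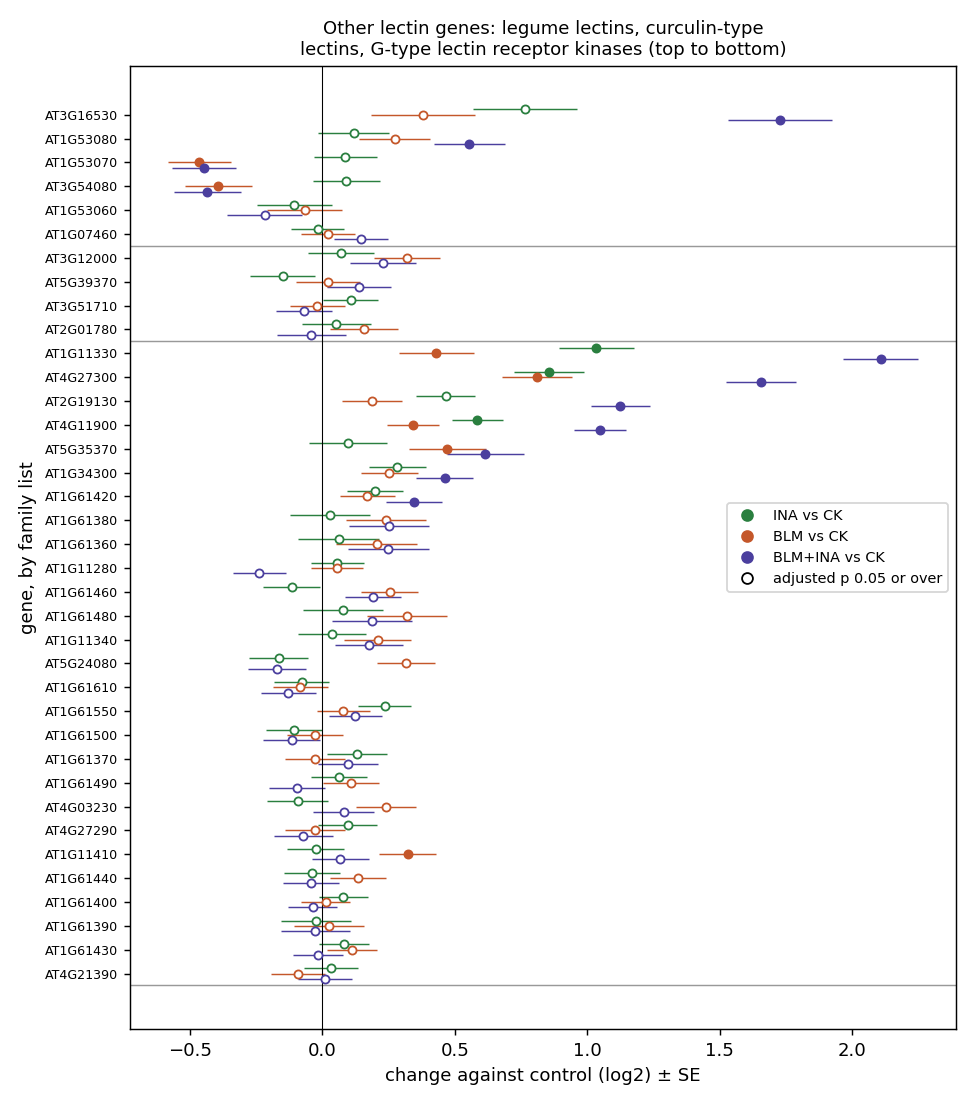
Changes against control (log2 ± SE, n = 3 arrays per group) of the 37 other lectin genes, in 3 family lists from top to bottom and ordered by the size of the change with both agents. Filled points passed an adjusted p under 0.05 by limma. The 4 highest changes with both agents among the receptor kinases lie between 1.05 and 2.11.

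Both genes lie on chromosome 5, as their locus names say, and their neighbours give a comparison by position that the choice of the genes did not use. Neighbours were the 3 nearest genes on each side with a probe set of their own in the order of the RefSeq table. Genes without one in the annotation were passed over. With INA, 0 of the 12 neighbours passed limma's threshold, which is near the 1.16% called over all probe sets. At an unadjusted p under 0.05 the count was 3, and the share over all probe sets at that level was not counted. AT5G03345, the gene next to AT5G03350 on one side, stood at 0.10 ± 0.12 with INA (adjusted p = 0.99) and at -0.10 ± 0.12 with both agents (adjusted p = 0.629). For AT5G18460, next to AT5G18470, the change with both agents was -0.27 ± 0.10 (adjusted p = 0.0681). It crossed the threshold with array centring (-0.27, adjusted p = 0.0476), the replicate block (-0.27, adjusted p = 0.0369) or array weights (-0.27, adjusted p = 0.0359).

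With BLM, 2 of the 12 neighbours rose and 1 fell, and with both agents 3 rose and 1 fell, a share of the 12 that stands beside the 16.7% and 22.2% called over all probe sets. AT5G18490 rose by 1.10 ± 0.13 with both agents (adjusted p = 4.34e-06), AT5G03320 by 0.66 ± 0.13 (adjusted p = 0.000842) and AT5G03380 by 0.57 ± 0.10 (adjusted p = 0.000319). AT5G18430 fell by 0.67 ± 0.13 (adjusted p = 0.000924). For the interaction, 0 of the 12 passed by limma, near the 0.382% called over all probe sets. The interaction values lay between -0.32 and 0.30. At an unadjusted p under 0.05 the count was 1, and the share over all probe sets at that level was not counted.

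Of 24 genes of the salicylic acid response, 4 had a probe set of their own in the annotation. With INA 0 of the 4 passed limma's threshold, against 1.16% of all probe sets called. At an unadjusted p under 0.05 the count was 3, and the share over all probe sets at that level was not counted. Without BLM replicate 1, UGT76B1 passed with INA at 0.50, just under the threshold. Without BLM+INA replicate 3, WRKY53 passed with INA at 0.55 (adjusted p = 0.00591). With BLM 2 of the 4 rose, against 8.38% of all probe sets called upward. They were WRKY53, by 0.84 ± 0.18 (adjusted p = 0.00373), and SAG101, by 0.80 ± 0.17 (adjusted p = 0.00357). With both agents all 4 rose, against 11.2% of all probe sets called upward. WRKY53, a transcription factor gene of defence and senescence, rose by 3.52 ± 0.18 (adjusted p = 2.67e-10) and SAG101, a partner of the defence regulator EDS1, by 1.36 ± 0.17 (adjusted p = 1.32e-05). The glutaredoxin gene GRX480 rose by 1.05 ± 0.13 and the glucosyltransferase gene UGT76B1 by 0.98 ± 0.14. With INA alone WRKY53 stood at 0.55 ± 0.18, UGT76B1 at 0.50 ± 0.14, GRX480 at 0.41 ± 0.13 and SAG101 at 0.04 ± 0.17. AT5G03350 stood at 4.94. The interaction passed for 1 of the 4, WRKY53, at 2.13 ± 0.26 (adjusted p = 0.000773), against 0.303% of all probe sets called upward.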

How the data were processed

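Seedling RNA was labelled with biotin after amplification, per the labels' protocols, and the probe set names are those of an Affymetrix array. The deposited log2 values were made with RMA, per the submitters' processing notes, which state no version. A later centring per probe set is seen in the values, whose row medians were 0 within 5e-07. That logs are to base 2 is taken from RMA. The number of arrays limits the precision.

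After 64 control probe sets were set aside, 22746 of 22810 were tested. Exactly 1 gene was given for 13513 of them and several for 503, while 8730 had no entry in the gene table. RefSeq names were lacking for 77. All 12 arrays entered a limma 3.58.1 fit in R 4.3.3, with group means as coefficients, 8 residual degrees of freedom and 8.82 from the prior. Tests were two-sided and adjusted by Benjamini-Hochberg within each comparison. The interaction subtracts both single-agent changes from the change with both agents. Named genes were the 2 members, the 5 most like each by Pearson's r, up to 4 per list by the size of the change with both agents, and the 3 nearest genes on each side. The members and lists were chosen with earlier results of these data known. No 2 arrays were identical.

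Alternatives were array centring, quantile normalization, the replicate number as a block, array weights, leaving out 5278 probe sets whose median level was under 4 as judged by how finely their numbers are stored, a threshold of 0.01, the linear scale, Spearman's correlation or group means for likeness, and each array left out in turn. Promoter motifs were planned and not analysed here. The model was tested on simulated data. Python 3.11.15 with matplotlib 3.10.9 drew the figures.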

Additional observations from a re-analysis of the deposited data

Results flagged for a closer look

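The effect of INA on WRKY53 differed with and without BLM by the interaction test, with a value of 2.13 ± 0.26 (limma, adjusted p = 0.000773). It stood out as a difference between groups. The BLM+INA arrays of WRKY53 lay between 2.39 and 3.46 with an SD of 0.57. Its SD was 0.05 in control, 0.09 with INA and 0.06 with BLM. Over 18 alternatives its interaction lay between 1.21 and 2.34, and the call was the same in all 18. All groups had 3 arrays, so no group was large enough to look for a single array far from the others.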

How the results depend on the processing

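Array centring and the replicate block moved no change of the 2 genes by more than the spread between replicates. Quantile normalization, which gives every array the same set of values, moved AT5G03350 to 4.06 with INA, 0.92 with BLM and 3.91 with both. For both agents it moved to 2.99 against BLM and to -0.15 ± 0.13 against INA, so that the sign of the latter depended on this setting. Quantile normalization moved AT5G18470 to 1.61 with both, 1.68 against BLM, 1.11 against INA and 1.18 for the interaction. On the linear scale the interaction was 24.0 for AT5G03350, of the opposite sign, and 3.83 for AT5G18470. Without 1 array at a time, the interaction ranged from -1.28 to -0.93 for AT5G03350 and from 1.77 to 2.22 for AT5G18470. Deviations of same-numbered arrays correlated above 0.1 in 10 of 18 pairs (median 0.127, beside -0.105 for other pairs), so the numbers were not taken as pairing all arrays. They did deviate together in part: all 6 pairs of replicates 3 lay between 0.233 and 0.405, and 7 of 12 arrays correlated best with their own number. With the replicate block the interaction calls went from 87 to 170, and the interaction of AT5G18470 stood at 2.0 ± 0.20. The block also gained the calls of AT2G19130 with INA and AT5G18460 with both agents, and changed no other call of a named gene. At an adjusted p under 0.01 the calls were 158 with INA, 2254 with BLM, 3352 with both and 42 for the interaction, and 45 interaction calls followed quantile normalization. Of the other lectin genes, 1 passed with BLM at 0.01 and 5 passed with INA after quantile normalization. Without 1 array at a time, calls with INA ranged from 168 (without INA replicate 1; 169 without control replicate 1) to 274, the other lectin genes with BLM from 1 to 7, and the salicylic acid genes with INA from 0 to 1. Where not stated otherwise, the cause was not tested. By Spearman's correlation, 0 of the 5 genes most like AT5G03350 and 1 of the 5 most like AT5G18470 were kept, and by group means 0 and 0.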
